A study of Mus musculus with 6 samples.

Results

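Fragments of the leucine tRNAs with the anticodons AAG and TAG were followed in the brains of old and young C57BL/6 mice, a common inbred laboratory strain. The fragments, called tDRs (tRNA-derived RNAs), carry an AS-tDR ID and are listed under the tRNAs they can come from, here called their parents. A tDR was included when each of its parents was a Leu-AAG or Leu-TAG tRNA and at least 1 parent was a mature tRNA, not a precursor. This rule kept 22 of the 591 IDs in the table: 10 with Leu-AAG parents, 11 with Leu-TAG parents and 1, AS-tDR-000064, with parents of both anticodons. The rule used parent names only and no measured value. Small RNA was sequenced from brain total RNA of mice aged 22 months (called old below, 3 libraries) and of mice aged 3 months (called young, 3 libraries). The labels give no genotype or treatment beside the strain, and do not say whether replicates are separate animals. Each p-value therefore sets the age difference against variation between these libraries, which may not be variation between animals. The columns of the table are named Age and WT with numbers 1 to 3, and they were read as 22 month and 3 month replicates 1 to 3.

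A tRNA carries an amino acid to the ribosome and reads a codon of the messenger RNA with its anticodon. Leucine has several tRNAs that differ in the anticodon (isoacceptors), and each anticodon has several gene copies. After a tRNA gene is transcribed, its leader and trailer are cut off and the letters CCA, which the gene does not encode, are added to the 3′ end; the amino acid is later joined to this CCA. A fragment that ends in CCA therefore comes from a tRNA that had already been processed. Mature tRNAs can be cut into stable fragments, for example by the ribonuclease angiogenin in the anticodon loop of stressed mammalian cells. In RNA, U stands for the T written here.

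The table gives the sequence of each parent tRNA, not that of the fragment. The mature parents below are shown because their differences decide which IDs belong to which tRNA. Positions are counted from 1 at the 5′ end of the mature tRNA. Capitals mark the anticodon at positions 35 to 37 and the 8 positions that differ between the parents, of which position 35 lies in the anticodon.
Leu-AAG-1-1: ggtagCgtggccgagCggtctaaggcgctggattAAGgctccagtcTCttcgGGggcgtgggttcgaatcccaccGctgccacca
Leu-TAG-1-1: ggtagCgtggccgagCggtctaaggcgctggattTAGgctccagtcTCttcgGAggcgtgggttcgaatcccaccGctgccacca
Leu-TAG-3-1: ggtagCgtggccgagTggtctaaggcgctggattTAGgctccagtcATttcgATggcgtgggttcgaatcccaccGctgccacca
All 8 mature parents are 85 nt long, CCA included. Leu-AAG-1-1, Leu-AAG-1-2 and Leu-AAG-1-3 have the same sequence and are each named by 9 of the 22 IDs. Leu-TAG-1-1 differs from Leu-AAG-1-1 at 2 positions, A35T in the anticodon and G54A. Leu-TAG-3-1 stands further away, with 6 differences from Leu-AAG-1-1 (C16T, A35T, T47A, C48T, G53A and G54T) and an identity of 92.9%. The remaining parents change only outer positions: Leu-AAG-2-1 differs from Leu-AAG-1-1 by C6T, Leu-AAG-3-1 by C6T and G76A, and Leu-TAG-2-1 differs from Leu-TAG-1-1 by C6T and G76A.

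RefSeq, on GRCm38.p6 (the build also called mm10, which the submitters' processing notes name), lists 5 Leu-AAG genes and 3 Leu-TAG genes, each 82 nt long and so without the added CCA. The Leu-AAG genes lie at chr7:120917517-120917598, chr11:48856974-48857055, chr13:21170036-21170117, chr13:21170206-21170287 and chr14:51063883-51063964. The Leu-TAG genes lie at chr7:120835479-120835560, chr11:69124241-69124322 and chr14:51082830-51082911. 1 copy could be placed by its flanking sequence. The 40 nt that follow the tRNA in the precursor of Leu-AAG-2-1 match the promoter window of Polr3e, which puts Leu-AAG-2-1 at chr7:120917517-120917598 on the plus strand, the position of RefSeq's n-TLaag4. Its 3′ end is 180 nt upstream of the start of Polr3e, the gene of a subunit of RNA polymerase III, the enzyme that transcribes tRNA genes.

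The parent list of an ID limits where in the tRNA the fragment can lie. For each list, every stretch of 15 to 50 nt that occurs in exactly the listed parents, and in no other parent in the table, was collected; this assumes that an ID is listed under every parent that matches it without a mismatch. Such a stretch exists for 20 of the 22 IDs (90.9%) and for 502 of all 591 IDs (84.9%). The 4 internal Leu-AAG IDs are listed under all 5 mature Leu-AAG tRNAs and 4 precursors. They must lie between positions 7 and 75 and are called internal, since no such stretch reaches the CCA. Another 5 IDs are listed under Leu-TAG-1-1, Leu-TAG-2-1 and 1 precursor, and they are confined to the same internal positions 7 to 75. A further 6 IDs are listed under Leu-TAG-3-1 alone, so they must cover a letter in which Leu-TAG-3-1 differs from the other mature Leu-AAG and Leu-TAG parents; they can start at any position from 1 to 54, and they may or may not reach the CCA. AS-tDR-000064 is listed under 6 mature parents of both anticodons and no precursor; it must start at position 55 to 71 and end in the CCA at 83 to 85. The 3 Leu-AAG 3′ end IDs start further from the 3′ end, at 34 to 54, and also end in the CCA. AS-tDR-000036 is a 5′ side fragment that starts at 1 to 6 and ends at 35 to 55. No stretch gives the parent lists of AS-tDR-013512 and AS-tDR-015082. The precursor of Leu-TAG-3-1 is not named in the table.

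**Figure D1:**
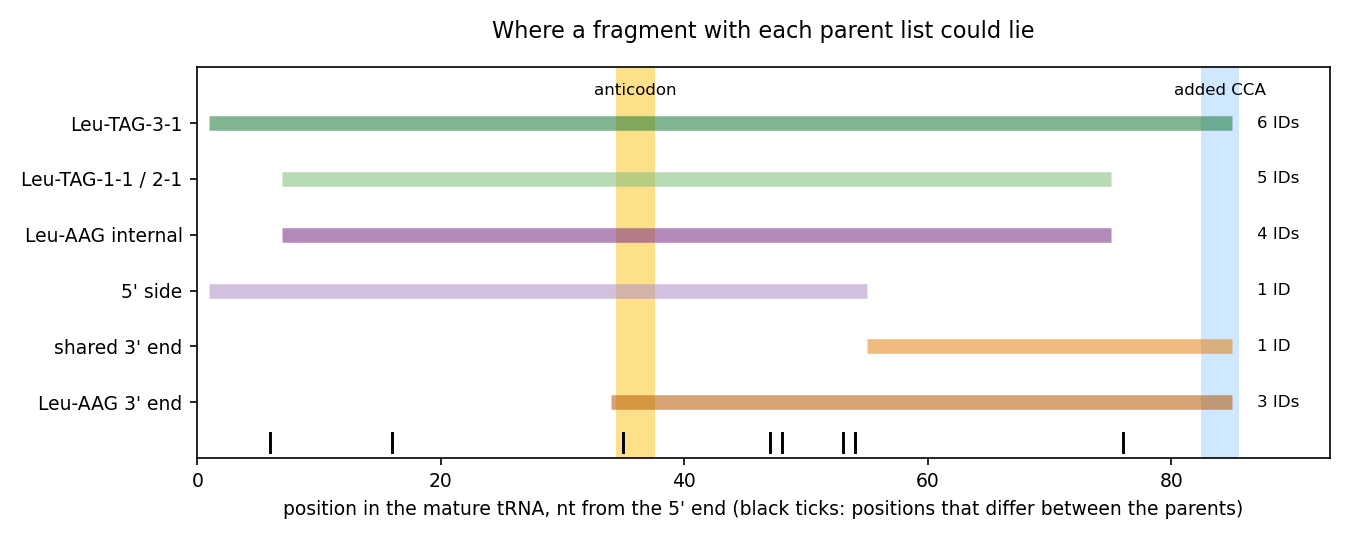
Outer limits of the stretches that give each parent list, along the mature tRNA in nt from its 5′ end, with the number of IDs per list at the right. Bars show where a fragment could lie, not its length. Black ticks are the 8 positions that differ between parents. The bars of the 2 internal groups end at position 75, before the CCA, and the bars of both 3′ end groups run into it.

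Listed tags summed to 71121, 96130 and 84807 in 22 month replicates 1 to 3, against 57425, 45131 and 44156 in 3 month replicates 1 to 3. The smallest non-zero counts were 13, 17 and 17 tags at 22 months, against 11, 8 and 9 tags at 3 months. Divided by the listed total these are 177 to 204 CPM (depth-scaled counts) in all 6 libraries, so a value of 0 means below that minimum and not that the fragment was absent. The chi-square per degree of freedom between 22 month libraries was 16.9 for replicates 1 and 2, and 54.8 and 59.7 for the pairs with replicate 3. Between 3 month libraries it was 6.43 to 10.1. For the same relative spread this value grows with the number of tags, which was larger at 22 months, so the ages cannot be compared on it directly. Levels below are CPM after TMM scaling (edgeR's trimmed mean of M values), and they are relative to the listed tRNA fragments. The table holds no other RNA, so the tissue label could not be checked against brain markers. In bulk brain RNA, fewer cells of a type and less RNA per cell cannot be told apart.

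The Leu-AAG and Leu-TAG fragments were mostly more abundant in old than in young brain, and the 5 that passed the test were higher by 1.02 to 1.84 on the log2 scale. With edgeR's quasi-likelihood test, 5 of the 18 IDs tested were higher at 22 months and 0 were lower. Each of the 5 had a Benjamini-Hochberg adjusted p of 0.0491. Another 13 did not pass, and 4 were not tested because they were above 0 in too few libraries for the filter. Among all 439 tested IDs, 21 were higher (4.78%) and 8 were lower (1.82%). At an unadjusted p under 0.05, edgeR gave 11 of these IDs higher and 1 lower, AS-tDR-006872, which is listed at 0 in all old libraries. At that level 69 of all 439 tested IDs were higher and 43 were lower. The log2 difference, 22 month minus 3 month, was positive for 16 of the 18 and had a median of 0.93, against a median of -0.16 over all tested IDs. In 11 of the 18 the lowest 22 month library was above the highest 3 month library, beside 85 of all 439 tested IDs (19.4%). The ages were apart in the other direction in 0 of the 18, beside 81 of all 439 tested IDs (18.5%). A listed 0 was taken here as any level up to the listing minimum of its library. The 5 calls rest on the scaling and on single libraries. With library sizes alone in place of TMM, edgeR made 0 calls in the whole table. At an unadjusted p under 0.05, 8 of the 18 were higher there, beside 47 higher and 59 lower among all 439 tested IDs. The median of the 18 was then 0.74, against -0.35 over all IDs. Leaving out 22 month replicate 1 or any 1 of the 3 month libraries also gave 0 calls with edgeR, among these IDs and in the whole table. Unadjusted counts of those fits are left out here, since no count over all IDs is given for them. Leaving out 22 month replicate 2 gave 4 higher calls among the 21 of these IDs tested, beside 9 of all 498 tested IDs (1.81%). Leaving out 22 month replicate 3 gave 1 among the 20 tested, beside 4 of all 494 tested IDs (0.81%).

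**Figure D2:**
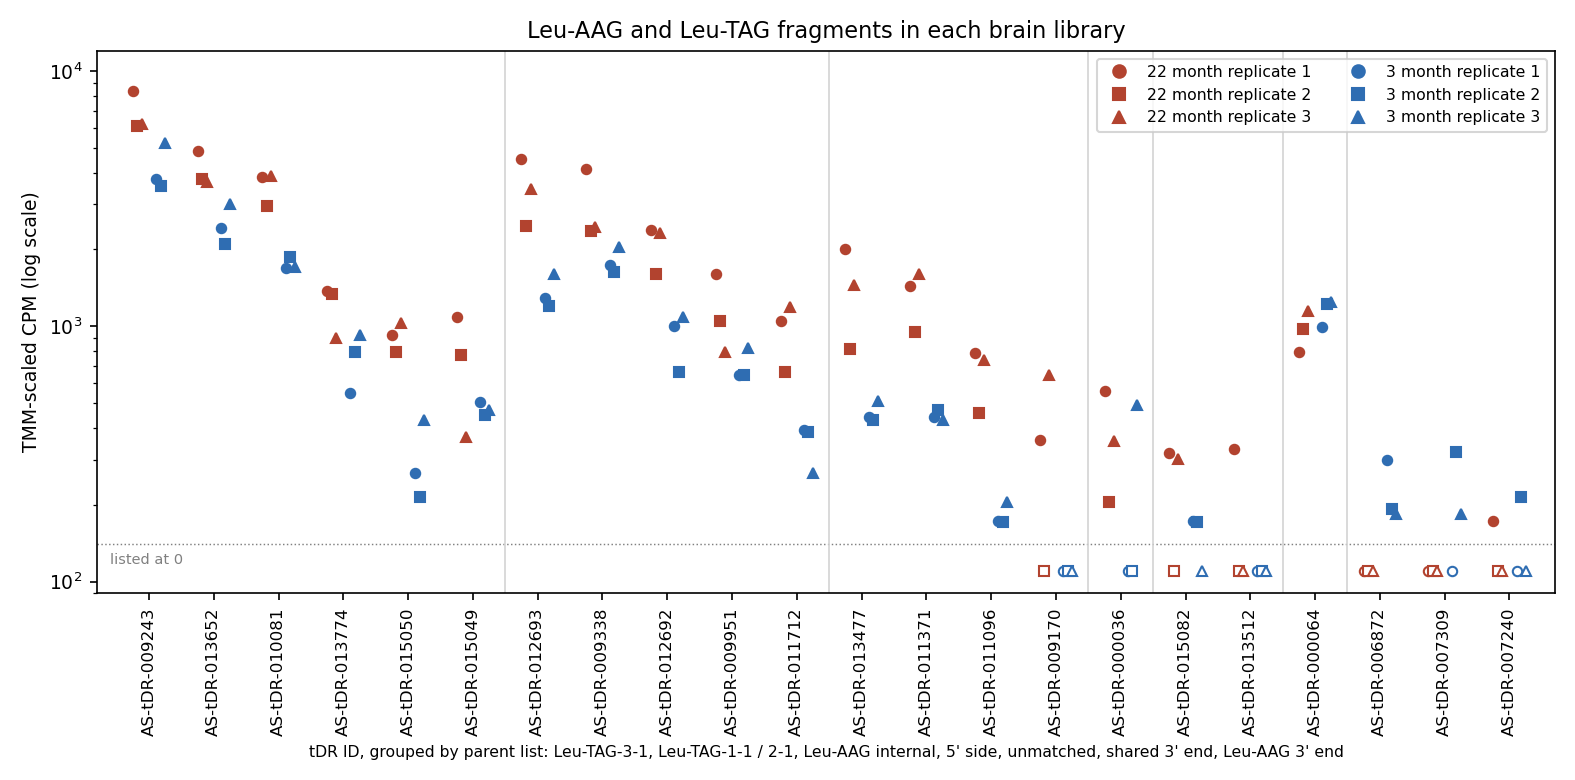
TMM-scaled CPM (log axis) of all 22 IDs, 22 month libraries in red at the left of each ID and 3 month libraries in blue at the right; open symbols in the lowest band are listed at 0. The red symbols lie above the blue ones in 11 of the tested IDs, and in AS-tDR-000064 they overlap.

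The Leu-TAG-3-1 fragments held the largest share of tags. Their 6 IDs took 52.4% ± 4.61 of all Leu-AAG and Leu-TAG tags at 22 months and 55.0% ± 1.39 at 3 months (SD over 3 libraries each). All 6 were tested, and 2 passed. The most abundant of the 22 IDs, AS-tDR-009243, had 8373, 6063 and 6185 CPM at 22 months, against 3759, 3534 and 5244 CPM at 3 months. The ages did not overlap, but the log2 difference was 0.72 with an SE of 0.24, which missed the threshold (edgeR adjusted p = 0.121). AS-tDR-013652 was also apart between the ages, with 4870, 3789 and 3667 CPM at 22 months, against 2422, 2099 and 3011 CPM at 3 months; here the difference was 0.71 with an SE of 0.22 (edgeR adjusted p = 0.0962).

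AS-tDR-010081 and AS-tDR-015050 are the Leu-TAG-3-1 fragments that passed the test, although all 6 had a positive log2 difference. AS-tDR-010081 had 3848, 2971 and 3872 CPM at 22 months, against 1699, 1863 and 1700 CPM at 3 months. Its mean was 3564 ± 514 CPM at 22 months and 1754 ± 94.6 CPM at 3 months (SD over 3 libraries each), and the log2 difference was 1.02 with an SE of 0.18. Its young libraries were nearly level with each other, and the lowest old library lay well above them. AS-tDR-015050 was scarcer, with 929, 794 and 1026 CPM at 22 months, against 267, 214 and 430 CPM at 3 months. It averaged 916 ± 117 CPM at 22 months and 304 ± 113 CPM at 3 months (SD over 3 libraries each), which is 1.59 on the log2 scale (SE 0.33). AS-tDR-013774 and AS-tDR-015049, the remaining Leu-TAG-3-1 IDs, differed by 0.68 (SE 0.29) and 0.64 (SE 0.42) on the log2 scale without passing, and their ages overlapped. Because these IDs name the same single parent, their unequal differences can be read within a library. The ratio of AS-tDR-015050 to AS-tDR-009243 tags was 0.111, 0.131 and 0.166 at 22 months, against 0.0711, 0.0606 and 0.0820 at 3 months. This pair was chosen after its values were seen and has no test.

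The 5 internal fragments of Leu-TAG-1-1 and Leu-TAG-2-1 made up 31.6% ± 1.80 of the tags at 22 months and 28.4% ± 1.63 at 3 months (SD over 3 libraries each). AS-tDR-012693 passed the test, and it had 4538, 2478 and 3448 CPM at 22 months, against 1290, 1199 and 1598 CPM at 3 months. The means were 3488 ± 1031 CPM at 22 months and 1362 ± 209 CPM at 3 months (SD over 3 libraries each), 1.36 apart on the log2 scale (SE 0.28). AS-tDR-009338 names the same parents and was about as abundant in old brain, with 4127, 2358 and 2449 CPM at 22 months, against 1746, 1628 and 2048 CPM at 3 months. The log2 difference of this ID, 0.72 with an SE of 0.28, missed the threshold (edgeR adjusted p = 0.163). AS-tDR-009338 was therefore the larger of the pair in all 3 young libraries, and AS-tDR-012693 the larger in all 3 old ones. Their ratio, AS-tDR-012693 over AS-tDR-009338, was 1.10, 1.05 and 1.41 at 22 months, against 0.739, 0.737 and 0.780 at 3 months; the pair was chosen after its values were seen and has no test.

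AS-tDR-012692, the third most abundant of this group, had 2375, 1600 and 2326 CPM at 22 months, against 1007, 664 and 1086 CPM at 3 months. Its ages did not overlap, and at 1.19 on the log2 scale (SE 0.27) it stayed just outside the threshold (edgeR adjusted p = 0.0566). AS-tDR-011712 was close to the threshold as well, at 1.46 on the log2 scale (SE 0.32, edgeR adjusted p = 0.0523) and with no overlap between the ages. AS-tDR-009951 differed least in this group, by 0.71 on the log2 scale (SE 0.31), and its ages overlapped.

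The internal Leu-AAG fragments included the 2 highest log2 differences of the 18 IDs tested, those of AS-tDR-011096 and AS-tDR-013477, of which AS-tDR-011096 passed. Their 4 IDs held 11.0% ± 2.75 of the tags at 22 months and 6.07% ± 0.496 at 3 months (SD over 3 libraries each). AS-tDR-011371 had 1433, 950 and 1601 CPM at 22 months, against 440, 471 and 430 CPM at 3 months. It averaged 1328 ± 338 CPM at 22 months and 447 ± 21.3 CPM at 3 months (SD over 3 libraries each), which is 1.57 on the log2 scale (SE 0.26). Its young libraries were close to level, and its old libraries spread more widely above them. AS-tDR-011096 had 783, 457 and 739 CPM at 22 months, against 173, 171 and 205 CPM at 3 months, with means of 660 ± 177 CPM at 22 months and 183 ± 18.9 CPM at 3 months (SD over 3 libraries each). The log2 difference was 1.84 with an SE of 0.37, the highest of the 18 tested. At 3 months it rested on 11, 8 and 10 tags, where the smallest counts listed in those libraries were 11, 8 and 9, so its young level stands at the listing minimum. AS-tDR-013477, the most abundant of the group, had 2004, 818 and 1450 CPM at 22 months, against 440, 428 and 512 CPM at 3 months. At 1.63 on the log2 scale (SE 0.36) it missed the threshold (edgeR adjusted p = 0.0523). AS-tDR-009170 had 27, 0 and 47 tags at 22 months, against 0, 0 and 0 at 3 months, and was not tested.

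**Figure D3:**
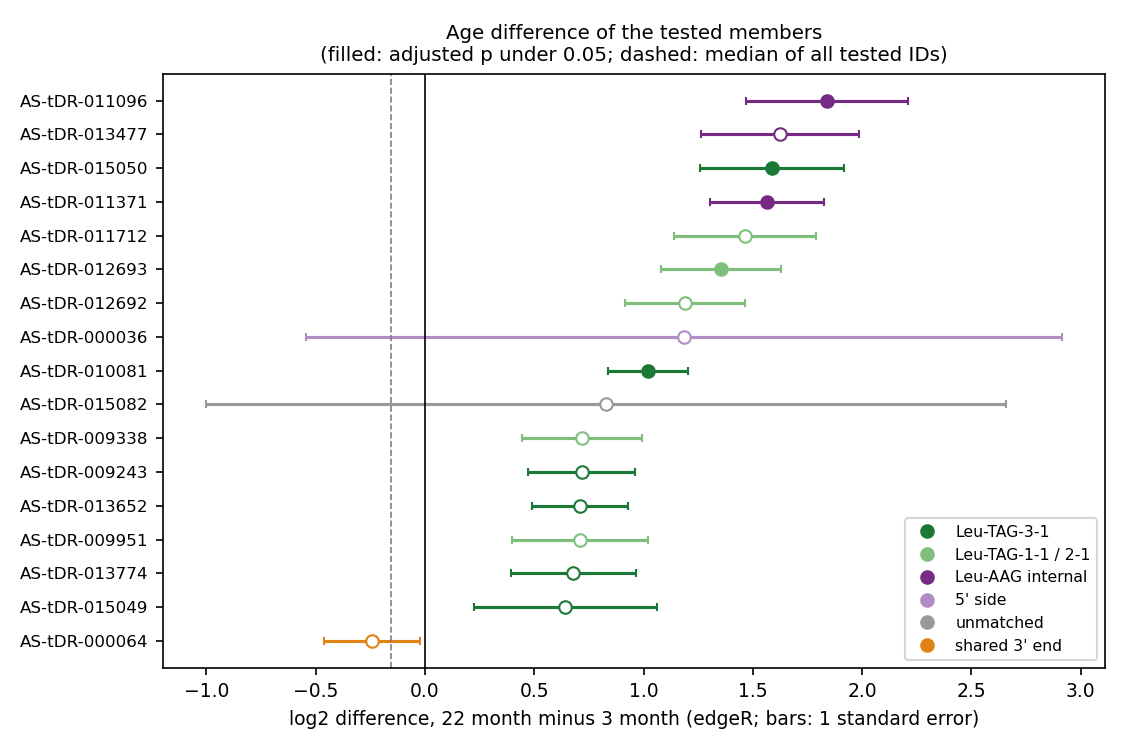
Log2 difference between the ages, 22 month minus 3 month, with 1 standard error, for 17 of the 18 tested IDs; filled points passed the test and the dashed line is the median of all tested IDs. AS-tDR-006872, at 0 in every 22 month library, is left out because its fitted value has no scale. The 3 tested internal Leu-AAG IDs lie between 1.57 and 1.84, and AS-tDR-000064 lies at -0.24.

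For 4 IDs every matching stretch ends in the CCA; 2 of them were tested and neither passed. AS-tDR-000064, the 3′ end fragment listed under parents of both anticodons, had 60, 81 and 84 tags at 22 months, against 63, 57 and 61 tags at 3 months. Scaled, these were 796, 974 and 1149 CPM at 22 months, against 991, 1221 and 1250 CPM at 3 months, and the ages overlapped. The means were 973 ± 177 CPM at 22 months and 1154 ± 142 CPM at 3 months (SD over 3 libraries each). The difference was -0.24 on the log2 scale (SE 0.22, edgeR adjusted p = 0.542). As a share of listed tags without TMM scaling, it held 0.0892% ± 0.00851 at 22 months and 0.125% ± 0.0143 at 3 months (SD over 3 libraries each), with no overlap. Among the Leu-AAG 3′ end fragments, AS-tDR-006872 was listed at 0, 0 and 0 tags at 22 months, against 19, 9 and 9 tags at 3 months. Its mean at 3 months was 1.11-fold the mean listing minimum of the old libraries in TMM-scaled CPM. That mean leans on 3 month replicate 1, at 299 CPM, beside 193 and 184 CPM in replicates 2 and 3. With a listed 0 taken as any level up to the minimum, the ages overlapped. The ID missed edgeR's threshold (adjusted p = 0.0703), and it entered the test only through the young libraries, so its values are a description. With each 0 replaced by a count 1 under the listing minimum, the log2 difference was -0.32 (edgeR adjusted p = 0.508). AS-tDR-007309 had 0, 0 and 0 tags at 22 months, against 0, 15 and 9 at 3 months, and AS-tDR-007240 had 13, 0 and 0 tags at 22 months, against 0, 10 and 0 at 3 months; neither was tested.

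The remaining Leu-AAG IDs were near the listing minimum. The 5′ side fragment AS-tDR-000036 had 42, 17 and 26 tags at 22 months, against 0, 0 and 24 tags at 3 months (log2 difference 1.19, SE 1.73, edgeR adjusted p = 0.697). AS-tDR-015082 had 24, 0 and 22 tags at 22 months, against 11, 8 and 0 tags at 3 months, and AS-tDR-013512 had 25, 0 and 0 tags at 22 months, against 0, 0 and 0 at 3 months. AS-tDR-015082 did not pass either (edgeR adjusted p = 0.797), and AS-tDR-013512 was not tested.

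Ratios of tags within a library do not depend on how libraries are scaled. The internal fragments of both anticodons together were 23.0, 10.6 and 12.7 times AS-tDR-000064 at 22 months, against 6.19, 4.58 and 5.57 times at 3 months. The 2 sides of this ratio name partly different parents. AS-tDR-000064 names Leu-TAG-3-1 but not Leu-AAG-3-1 or Leu-TAG-2-1, while the internal fragments name those 2 and leave out Leu-TAG-3-1. On the mean log2 scale the ratio was 2.70-fold higher in old brain, and every old library lay above every young one. Without 22 month replicate 1, whose ratio was the highest, the log2 difference was 1.11, against 1.43 with all libraries. Internal Leu-AAG tags were 0.334, 0.273 and 0.434 times the internal Leu-TAG-1-1 and Leu-TAG-2-1 tags at 22 months, against 0.207, 0.237 and 0.197 times at 3 months. Internal Leu-TAG-1-1 and Leu-TAG-2-1 tags were 0.668, 0.518 and 0.637 times the Leu-TAG-3-1 tags at 22 months, against 0.552, 0.505 and 0.494 times at 3 months, with overlapping ages. These 3 ratios were chosen after values had been seen and have no test.

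**Figure D4:**
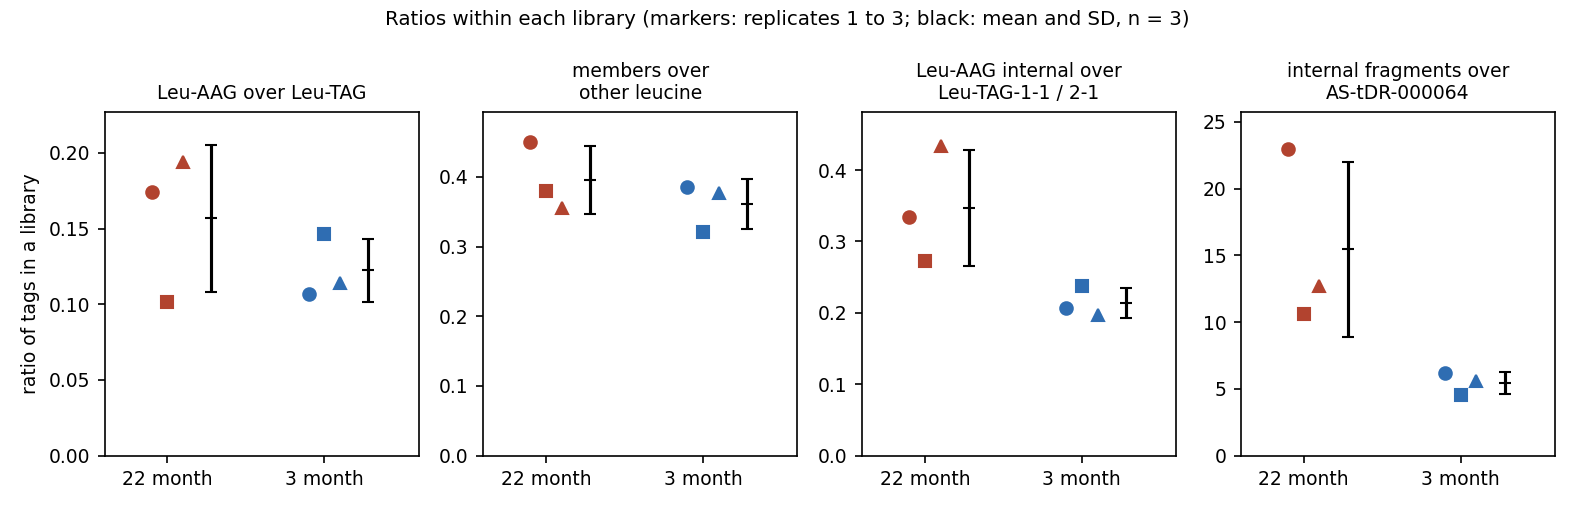
Ratios of summed tags within each library, 22 month libraries in red and 3 month libraries in blue, with the mean and SD (n = 3) in black; each panel has its own linear axis from 0. Members are the 22 IDs, and internal fragments are the internal Leu-AAG, Leu-TAG-1-1 and Leu-TAG-2-1 IDs. AS-tDR-000064 and the internal fragments name partly different parents. The ages overlap in the first and second panels and are apart in the third and the fourth.

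Summed, the 22 IDs held 4.34%, 2.36% and 2.80% of listed tags at 22 months, against 1.86%, 1.72% and 2.31% at 3 months. The means were 3.16% ± 1.04 at 22 months and 1.96% ± 0.304 at 3 months (SD over 3 libraries each), a 1.57-fold difference on the mean log2 scale with no overlap between the ages. The exact two-sided permutation test gave p = 0.1, the smallest that 3 against 3 libraries allow, and 0.3 adjusted over the 3 sums and ratios tested. Replicate 1 at 22 months was the highest library, and without it the log2 difference was 0.40, against 0.65 with it.

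Summed by anticodon, both classes passed in old brain. Leu-TAG tags were 3.62%, 2.06% and 2.26% of listed tags at 22 months, against 1.58%, 1.39% and 1.95% at 3 months. The edgeR fit over all 77 tested classes of parents, of which 10.4% were higher, put the TMM-scaled log2 difference at 1.02, with an SE of 0.20 and an adjusted p of 0.0236. Leu-AAG tags were 0.631%, 0.210% and 0.439% at 22 months, against 0.169%, 0.204% and 0.222% at 3 months. The log2 difference was 1.44, with an SE of 0.36 (edgeR adjusted p = 0.0414), although 22 month replicate 2 lay inside the range of the young libraries as a share. With library sizes alone neither class passed, at log2 differences of 0.69 for Leu-TAG and 1.11 for Leu-AAG (edgeR adjusted p = 0.156 for both), and neither passed without any 1 of the 3 month libraries. Whether the 2 anticodons differed in their response was tested with the ratio of Leu-AAG to Leu-TAG tags, which was 0.174, 0.102 and 0.194 at 22 months, against 0.107, 0.146 and 0.114 at 3 months. The ages overlapped, and the exact two-sided permutation test gave p = 0.4 (0.5 adjusted over the 3 tests).

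Fragments of other leucine tRNAs were also mostly higher in old brain. Of the 37 other leucine IDs, 32 were tested and 8 were higher at 22 months, with 0 lower and a median log2 difference of 0.83. By anticodon sums, Leu-CAA had a log2 difference of 1.24 and Leu-TAA of 1.11, both at an edgeR adjusted p of 0.0236. With library sizes alone none of the 8 IDs passed, nor did Leu-CAA (edgeR adjusted p = 0.0955) or Leu-TAA (edgeR adjusted p = 0.111). Leu-CAG, at 0.43 (edgeR adjusted p = 0.450), and the IDs shared by Leu-CAA and Leu-CAG, at 0.37 (edgeR adjusted p = 0.126), did not pass. The 22 IDs together were 0.451, 0.380 and 0.356 times the other leucine tags at 22 months, against 0.386, 0.320 and 0.376 times at 3 months. This ratio was 1.09-fold higher on the mean log2 scale, with overlapping ages (exact two-sided permutation test, p = 0.5, and 0.5 adjusted over the 3 tests). Of the 57 other classes above 0 in all 6 libraries, the 3 whose pattern lay closest to that of the 22 IDs were also leucine classes. The mean absolute difference of centred log2 share over the 6 libraries was 0.145 for Leu-CAA, 0.181 for Leu-TAA and 0.194 for AS-tDR-011517, which names Leu-CAA, Leu-CAG and Leu-TAG parents; the next was 0.239, for precursor-only Ala-CGC.

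**Figure D5:**
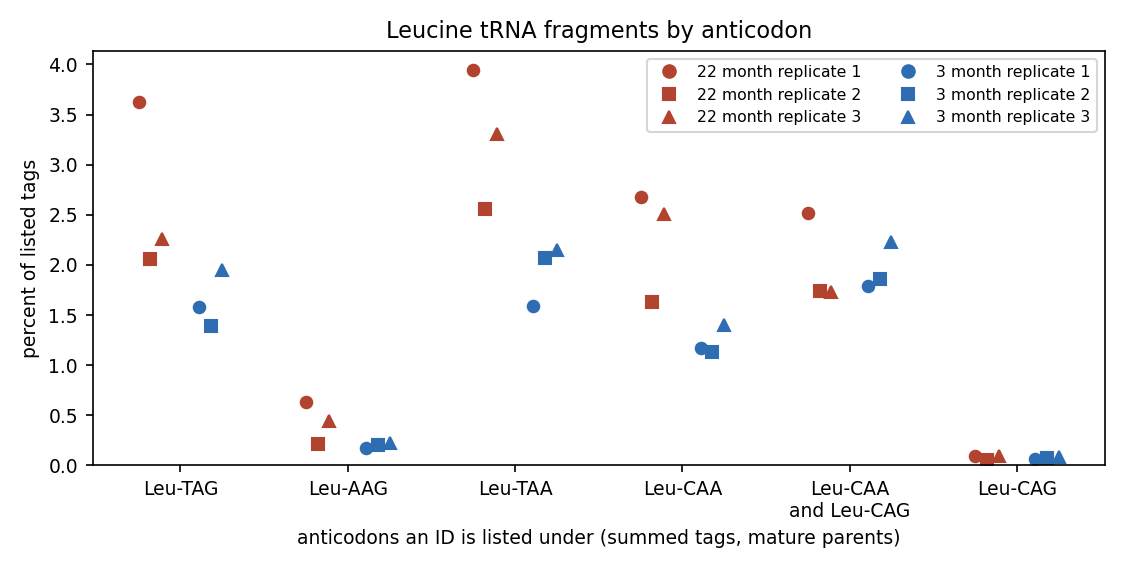
Summed tags of the leucine classes as a percentage of listed tags, 22 month libraries in red at the left and 3 month libraries in blue at the right of each class. Leu-TAG, Leu-TAA and Leu-CAA are apart between the ages; Leu-AAG, Leu-CAG and the IDs shared by Leu-CAA and Leu-CAG overlap.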

How the data were processed

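Small RNA libraries were made from Trizol-extracted brain total RNA and read as 50-nt single reads, per the labels' protocols. The submitters' processing notes name FastQC, cutadapt, Novoalign and mm10, with no versions. How tags were counted, and which minimum a listed value had to reach, is not given in the sources used here. Deposited values are counts of tags per tDR ID; although the file's title calls them normalized, they are whole numbers with unequal totals and were treated as raw counts. They repeat on the line of every parent (3257 lines), so each of the 591 IDs was taken once.

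The comparison used edgeR 4.0.16 under R 4.3.3 (filterByExpr with a minimum count of 10, TMM, quasi-likelihood test, age only), with Benjamini-Hochberg adjustment over all 439 tested IDs and a threshold of 0.05. Class sums were fitted likewise. Single values had exact permutation tests (scipy 1.17.1). Alternatives used DESeq2 1.42.0, limma 3.58.1 (voom), other scalings, filters, a replicate block and left-out libraries. Listed totals were 44156 to 96130 tags, and replicates differed by more than counting error (chi-square per degree of freedom 6.43 to 59.7), so the spread between replicates limits the precision. Promoter windows and gene positions are RefSeq's.

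The IDs, lists and tests were chosen with earlier results of these data known. Every ID is accounted for; shown in every library are those past the threshold, the 6 most abundant, and those with the highest and lowest difference, with low-count IDs added as tags. Same-numbered libraries of the 2 ages did not deviate together, so numbers were not taken as pairs.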

Additional observations from a re-analysis of the deposited data

How the results depend on the processing

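Calls depended on the processing more than directions did. For the 10 IDs named by rule, no alternative turned the sign in 159 refits of these same libraries. Of the refits, 102 kept an ID on its side of the threshold, which counts uncalled IDs that stayed uncalled. The 5 called IDs, which account for only a part of the 159 refits, lost their call in 49, and in 8 an uncalled ID gained one. The 5 calls (8 for other leucine IDs) became 0 (0) with library sizes alone, 0 (0) without a filter, 0 (0) with libraries scaled to the smallest listed count, an alternative chosen after seeing the data, 8 (9) with DESeq2's size factors in edgeR, 10 (13) with DESeq2, 3 (10) with limma-voom (both tools also put AS-tDR-006872, at 0 in all old libraries, past the threshold as lower), and 8 (10) with IDs above 0 in all libraries. In the whole table, 6.61% of IDs were called higher with DESeq2's size factors, 13.4% with DESeq2, 5.92% with limma-voom and 13.1% with IDs above 0 in all libraries. Those called lower were 8.66% with DESeq2 and 4.56% with limma-voom. Leaving out 1 library gave 0 to 4 calls among the 22 IDs and 0 to 5 among other leucine IDs. At an unadjusted p under 0.05, all IDs split 69 higher to 43 lower with TMM and 47 to 59 with library sizes alone. At that unadjusted level 8 of the 18 IDs tested were higher with library sizes alone, and 8 of the 18 with libraries scaled to the smallest listed count. Scaled to the smallest listed count, all IDs split 49 higher to 49 lower. For the remaining settings with 0 calls, no split over all IDs is given, so no unadjusted count of the 22 IDs is given either. A replicate block gave 0 and 0 calls; the pairing has no support in the labels, and same-numbered libraries correlated at -0.46, 0.04 and -0.34.

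The Leu-AAG sum did not pass at 1.11 with library sizes alone (edgeR adjusted p = 0.156), 1.33 with limma-voom (adjusted p = 0.0733), 1.34 with the replicate block (edgeR adjusted p = 0.120) and 1.13 scaled to the smallest listed count (edgeR adjusted p = 0.150). The Leu-TAG sum did not pass at 0.69, 1.01 and 0.74 with library sizes alone, the replicate block and the smallest listed count (edgeR adjusted p = 0.156, 0.0817 and 0.150). Leave-one-out log2 differences were 1.24 to 1.80 for Leu-AAG and 0.90 to 1.20 for Leu-TAG; without any 1 of the 3 month libraries neither sum passed, and the Leu-AAG sum also did not without 22 month replicate 1 or 3. The cause was not tested. Leave-one-out log2 differences of the share of the 22 IDs were 0.40 to 0.84. They were 0.14 to 0.60 for the ratio of Leu-AAG to Leu-TAG, 0.03 to 0.20 for the ratio to other leucine tags, and 1.11 to 1.66 for internal tags over AS-tDR-000064, a ratio chosen after seeing the data. With IDs above 0 in all libraries, the log2 difference of the Leu-AAG to Leu-TAG ratio was 0.71 (exact permutation p = 0.1), against 0.32 with all IDs.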

Other observations

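AS-tDR-011517 is listed under Leu-TAG together with Leu-CAA and Leu-CAG tRNAs and was therefore outside the 22 IDs. It held 0.191%, 0.123% and 0.103% of listed tags at 22 months, against 0.0993%, 0.109% and 0.116% at 3 months, and the ages overlapped. AS-tDR-009829, the 1 ID with Leu-AAG precursor parents only, held 0.0177% in 3 month replicate 2 and was listed at 0 in the other libraries.

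Fragments were also grouped by the CCA end over the rest of the table, with the 22 IDs left out and for IDs above 0 in all 6 libraries. The median log2 difference, 22 month minus 3 month, was -0.07 over 36 IDs whose stretches all end in the CCA. It was -0.11 over 124 IDs that name both mature and precursor parents and whose stretches never reach the CCA. These values are a description, and no test was made of them.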
